A study of Mus musculus with 24 samples.

Results

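The genes described here are 9 chromatin genes that write or read histone acetylation, taken by name from the 24456 genes counted in each library. They comprise 3 members of the BET family (Brdt, Brd2 and Brd3), Nutm1, the acetyltransferases Ep300 and Crebbp, the ATAD2 paralogue Atad2b, and the remodeller subunits Brd7 and Brd9. All 9 passed the filter on low counts, which 17170 genes passed.

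The study followed testes of wild-type and Atad2 KO mice during the first wave of spermatogenesis. RNA came from homozygous males of either genotype on days 20, 22, 24 and 26 after birth, with 4 libraries per genotype at days 20 and 22 and 2 at days 24 and 26. These numbers follow the sample labels, and the study's methods give 1 library fewer per genotype at day 20. The KO allele is constitutive, with a lacZ reporter spliced to the upstream exons of Atad2 and a downstream exon and the neo cassette deleted by Cre driven from the ubiquitous CMV promoter, so every cell of the KO animals carries it. The upstream exons can still be transcribed, and a count over the whole gene therefore measures a reduced transcript and not a missing one. The study's methods call the libraries of a group biological replicates, and the labels do not tie libraries to animals.

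Histone acetylation is written by acetyltransferases such as EP300 and CREBBP and is read by bromodomains, which hold acetylated lysine in a pocket closed by a conserved asparagine. BET proteins carry tandem bromodomains, and BRDT is the testis-specific one, known for binding hyperacetylated histone H4 when histones are removed from elongating spermatids. NUTM1 is made in post-meiotic germ cells, binds EP300 and CREBBP and raises their activity, and so links the writers to BRDT. ATAD2 and ATAD2B are AAA+ ATPases with 1 bromodomain, BRD9 belongs to the ncBAF remodeller and BRD7 to PBAF.

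The paralogues compared here are close relatives, and reads that map to more than one place were not counted, so the coding stretch from the shelf (residues that line one side of the pocket) of the first or only bromodomain to the conserved asparagine is shown for each. The capitals mark the 3 shelf codons at the 5′ end and the asparagine codon at the 3′ end. The sequences were read from the GENCODE M21 transcripts, on build mm10, and each stretch spans 2 exons.
Brdt: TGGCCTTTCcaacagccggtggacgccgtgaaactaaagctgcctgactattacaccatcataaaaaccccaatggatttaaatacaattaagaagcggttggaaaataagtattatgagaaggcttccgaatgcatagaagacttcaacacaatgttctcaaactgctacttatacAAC
Brd2: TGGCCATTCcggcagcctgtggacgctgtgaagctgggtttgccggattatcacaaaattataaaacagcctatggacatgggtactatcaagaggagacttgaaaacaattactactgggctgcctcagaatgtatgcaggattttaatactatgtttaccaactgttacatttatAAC
Brd3: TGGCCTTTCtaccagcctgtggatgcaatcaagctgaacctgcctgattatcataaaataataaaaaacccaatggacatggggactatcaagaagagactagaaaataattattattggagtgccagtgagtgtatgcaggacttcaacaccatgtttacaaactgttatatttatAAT
Atad2b: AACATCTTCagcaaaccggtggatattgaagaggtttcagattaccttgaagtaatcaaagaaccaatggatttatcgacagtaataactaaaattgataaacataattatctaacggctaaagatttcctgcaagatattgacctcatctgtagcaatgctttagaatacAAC
Atad2: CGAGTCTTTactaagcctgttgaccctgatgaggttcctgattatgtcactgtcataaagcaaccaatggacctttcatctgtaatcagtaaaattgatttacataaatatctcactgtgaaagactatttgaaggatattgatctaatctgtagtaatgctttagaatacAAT
Ep300: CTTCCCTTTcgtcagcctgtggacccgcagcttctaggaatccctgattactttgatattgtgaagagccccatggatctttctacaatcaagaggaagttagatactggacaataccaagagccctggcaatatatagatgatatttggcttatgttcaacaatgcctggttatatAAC
Crebbp: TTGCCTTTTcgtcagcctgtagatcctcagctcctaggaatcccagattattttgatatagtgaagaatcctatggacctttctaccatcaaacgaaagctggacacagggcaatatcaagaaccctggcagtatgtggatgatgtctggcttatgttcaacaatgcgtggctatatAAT

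The shelf of the 3 BET members is encoded by tryptophan, proline and phenylalanine codons, that of Ep300 and Crebbp by leucine, proline and phenylalanine codons, that of Atad2b by asparagine, isoleucine and phenylalanine codons and that of Atad2 by arginine, valine and phenylalanine codons. Brdt lies on the plus strand and its stretch at chr5:107342215-107343687, while those of Brd2 and Brd3 lie on the minus strand at chr17:34116201-34116952 and chr2:27463458-27463933. The Atad2b stretch lies at chr12:5013967-5018123 on the plus strand and that of Atad2 at chr15:58102396-58103230 on the minus strand. The Ep300 stretch lies at chr15:81630075-81631748 on the plus strand and that of Crebbp at chr16:4108141-4109144 on the minus strand. The other 3 genes, whole, lie at chr2:112247948-112259291 on the minus strand (Nutm1), chr8:88331039-88362194 on the minus strand (Brd7) and chr13:73937811-73960895 on the plus strand (Brd9).

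Over these stretches Ep300 and Crebbp shared 81.7% of 180 bases, Brd2 and Brd3 79.4%, Brdt and Brd3 71.1%, Brdt and Brd2 67.2%, and Atad2 and Atad2b 70.7% of 174. Over all annotated transcripts the longest identical run was 31 bases between Ep300 and Crebbp, 20 between Brd2 and Brd3, 20 between Atad2 and Atad2b, 18 between Brdt and Brd3, 18 between Brd7 and Brd9 and 14 between Brdt and Brd2. All of these are shorter than the paired 75-base reads. The exons of Brd2 share 4.6% of their length with H2-DMa and 5.18% with an antisense transcript, both on the opposite strand, and the counting used strand.

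The libraries held 10709667 to 19491935 counts on genes. Atad2, the targeted gene, was lower in the KO at every age without overlap of the genotypes, with a log2 fold change averaged over the 4 ages of -1.37 ± 0.112 (SE; edgeR quasi-likelihood test, Benjamini-Hochberg adjusted p = 1.23e-07), although day 26 alone missed the threshold of 0.05 (-1.25 ± 0.255, adjusted p = 0.0628). Transcripts of somatic cells were present in all libraries, in CPM (counts relative to the library total, scaled by the TMM method). The 8 Sertoli markers summed to 1616 to 2342 CPM in wild-type at day 20 and 1055 to 1229 CPM at day 26, the 5 peritubular markers to 691 to 1163 and 422 to 511 CPM, and the 6 Leydig markers to 260.2 to 376 and 1095 to 1805 CPM. Among germ cells, the 6 spermatogonial markers summed to 249.9 to 306.5 CPM in wild-type at day 20 and 162 to 175 CPM at day 26, the 9 pachytene markers to 2733 to 3407 and 5548 to 6002 CPM, and the 7 markers of elongating spermatids to 1.47 to 8.57 and 1950 to 3026 CPM. Transcripts of round spermatids increased over the time course, and the sum of 10 markers of these cells was 4.63 to 16.1 CPM in wild-type at day 20 and 749 to 782 CPM at day 26. The same markers summed to 13.4 to 128 CPM in the KO at day 20, where the lowest KO library overlapped the wild-type range. In the KO at day 26 the pachytene (7079 to 7146 CPM) and elongating-spermatid sums (3161 to 3198 CPM) lay above the wild-type range. The peritubular (322 to 365 CPM), Leydig (872 to 999 CPM) and spermatogonial sums (147.6 CPM) lay below it, and the round-spermatid sum overlapped. The Sertoli sum (1280 to 1291 CPM) lay above, but only Clu of its 8 genes had the higher mean in the KO. One wild-type library of day 20, replicate 2, stood apart from the other 3 in that group, with the highest share of reads that were not unique (13.7%), and the day 20 differences and wild-type changes with age of the 9 genes are given with and without it.

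Compared per kilobase of exon, 2 genes dominated. Brdt reached 58.1 ± 9.86 RPKM (SD, n = 4) in wild-type at day 20 and 71.2 ± 7.13 RPKM (n = 2) at day 26, and Brd2 44.3 ± 12.9 and 68.5 ± 6.29 RPKM. Their ranges overlapped in each group except KO day 24, where Brdt (58.1 ± 0.268 RPKM, n = 2) and Brd2 (57.4 ± 0.632 RPKM) nearly met, and Brd2 had the higher mean only in the KO at day 26 (86.6 ± 10.9 against 77.2 ± 4.93 RPKM, n = 2). The other 7 genes lay below this pair without overlap in each of the 8 groups.

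In wild-type at day 20 Brd7, Crebbp, Brd3 and Ep300 lay between 13.3 ± 2.42 RPKM for Ep300 and 18.2 ± 4.07 RPKM for Brd7 (n = 4), and each overlapped its neighbour in the order. Brd9 (6.43 ± 0.958 RPKM) and Atad2b (5.74 ± 1.55 RPKM) overlapped each other and lay below all 4. Nutm1 was the lowest of the 9 at 1.62 ± 0.348 RPKM, without overlap with Atad2b. By day 26 in wild-type it was the fourth highest at 17.0 ± 4.99 RPKM (n = 2), its range overlapping that of Brd7, while Atad2b was the lowest at 4.26 ± 0.38 RPKM.

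**Figure D1:**
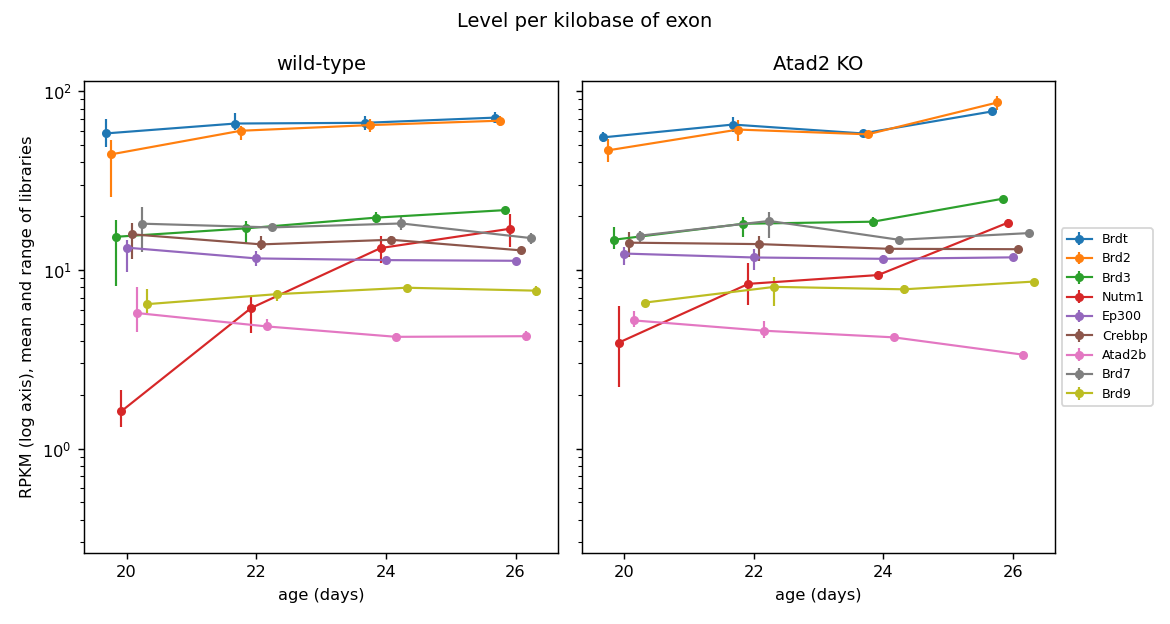
Level of the 9 genes per kilobase of exon (RPKM, log axis) against age in wild-type (left) and Atad2 KO (right) testes; points are group means and bars the range of the 4 or 2 libraries. Nutm1 climbs from 1.62 to 17.0 RPKM in wild-type, and Brdt and Brd2 stay above the other genes at every age.

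The first comparison was between day 26 and day 20 within each genotype, which asks how the genes changed as round spermatids accumulated. In wild-type testes Nutm1 and Brd2 rose and Atad2b fell, so 3 of the 9 genes passed against 42.5% of all genes tested. In Atad2 KO testes 6 passed, against 52.2% of all genes: Nutm1, Brd2, Brd3, Brdt and Brd9 rose and Atad2b fell. The count lay below the share of all genes in wild-type and above it in the KO, and with 9 genes no test of these shares was made. The 3 wild-type genes passed in both genotypes, as did 35.4% of all genes. The marker sums of Sertoli, peritubular, spermatogonial, Leydig, pachytene, round-spermatid and elongating-spermatid cells moved over the same ages without overlap in wild-type, and their part in these changes was not tested apart from the stage covariate. In whole testis, fewer cells of a type and less RNA per cell cannot be told apart.

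Nutm1 gave the widest change. In wild-type its CPM was 5.74, 4.95, 5.55 and 7.92 in the 4 libraries of day 20, 26.6, 16.6, 26.7 and 21.3 at day 22, 58.1 and 40.8 at day 24, and 50.3 and 76.6 at day 26. All libraries of day 22 lay above all of day 20, and those of days 24 and 26 above both and overlapping each other. From day 20 to day 26 it rose by 3.39 ± 0.327 on the log2 scale (SE; edgeR, adjusted p = 1.32e-07), a 10.5-fold rise with a 95% interval of 6.52 to 16.7. Leaving out wild-type day 20 replicate 2 gave 3.27 (adjusted p = 4.36e-06), and the stage covariate (round-spermatid minus pachytene marker score), which itself moves with age, gave 0.74 (adjusted p = 0.577). In the KO, where day 20 libraries already held 8.24 to 23.3 CPM and those of day 26 held 65.1 and 72.1 CPM, the log2 fold change was 2.23 ± 0.313 (adjusted p = 1.23e-05), and 0.95 with that covariate (adjusted p = 0.0274). Whether the rise from day 20 to day 26 differed between the genotypes was not tested on its own. The test given below takes the KO effect at all 4 ages together.

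Among the BET genes, Brd2, a broadly expressed reader of acetylated histone H4, was the one that rose in both genotypes. Its CPM in wild-type was 417, 199.6, 405 and 367 at day 20 and 501 and 570.5 at day 26, and in the KO 314, 340.3, 385 and 424 at day 20 and 617 and 738 at day 26. The ages did not overlap in either genotype, and the lowest of the 12 values was that of wild-type day 20 replicate 2. Brd2 thus rose by a log2 fold change of 0.63 ± 0.201 in wild-type (adjusted p = 0.0161, edgeR) and 0.89 ± 0.199 in the KO (adjusted p = 0.000994). Without that library the wild-type value was 0.39 (adjusted p = 0.0304). The wild-type call was lost without wild-type day 26 replicate 2 (0.53, adjusted p = 0.144), under upper-quartile scaling (0.47, adjusted p = 0.0568) and with the stage covariate (0.13, adjusted p = 0.955), and the last also lost the KO call (0.63, adjusted p = 0.147).

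Brdt counted 322, 356, 251 and 259.5 CPM in the wild-type libraries of day 20 and 338 and 390.0 CPM at day 26. In the KO it counted 291, 304, 269.5 and 265 CPM at day 20 and 377 and 412.5 CPM at day 26. The ages overlapped in wild-type and did not overlap in the KO. Its log2 fold change was 0.48 ± 0.14 in the KO (adjusted p = 0.00706, edgeR) and 0.29 ± 0.141 in wild-type (adjusted p = 0.0999), and without wild-type day 20 replicate 2 the latter was 0.35 (adjusted p = 0.0307). With the stage covariate the values were 0.61 in the KO (adjusted p = 0.0641, edgeR) and 0.52 in wild-type, and neither passed. Transcripts of Brdt were thus already abundant at day 20, and day 26 stood at 1.23-fold of that level in wild-type and 1.40-fold in the KO.

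Brd3, another broadly expressed BET reader, measured 123, 59.6, 139.8 and 128 CPM in wild-type at day 20 and 159 CPM in both libraries of day 26. In the KO it measured 95.9, 97.0, 112 and 128 CPM at day 20 and 179 and 188 CPM at day 26. Neither genotype overlapped between the ages, and the library at 59.6 CPM was again wild-type replicate 2. The log2 fold change was 0.76 ± 0.214 in the KO (adjusted p = 0.00549, edgeR) and 0.49 ± 0.216 in wild-type (adjusted p = 0.0703). With replicate 2 left out the wild-type value was 0.24 (adjusted p = 0.177). It was highest, at 0.59, without wild-type day 20 replicate 3, and passed in 1 of the 24 fits with 1 library left out.

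The partners of NUTM1, the acetyltransferases Ep300 and Crebbp, did not pass in either genotype. Ep300 measured 204.5, 139, 210.2 and 208 CPM in wild-type at day 20 and 157 and 164 CPM at day 26. Crebbp measured 228, 155, 247 and 227 CPM at day 20 and 177 and 171 CPM at day 26. Wild-type day 20 replicate 2 was the lowest of the 24 libraries for Ep300 and of the 12 wild-type libraries for Crebbp, and the other 3 libraries of that group lay above both libraries of day 26.

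The log2 fold change in wild-type was -0.25 ± 0.149 for Ep300 (adjusted p = 0.194, edgeR; 95% interval -0.56 to 0.07) and -0.30 ± 0.166 for Crebbp (adjusted p = 0.153; -0.64 to 0.05). Without replicate 2 both passed, at -0.41 (adjusted p = 0.00834) and -0.47 (adjusted p = 0.00958). In the KO the values were -0.07 ± 0.148 (adjusted p = 0.711) and -0.12 ± 0.165 (adjusted p = 0.553). The ratio of Ep300 to Crebbp counts ranged from 0.812 ± 0.0338 (SD, n = 2) in wild-type at day 24 to 0.949 ± 0.00276 (n = 2) in the KO at day 26. Nutm1, in contrast, went from 32.1 ± 5.71 counts per 1000 Ep300 counts in wild-type at day 20 (n = 4) to 393 ± 104 at day 26 (n = 2).

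Atad2b was the gene that fell in both genotypes. Its CPM was 77.6, 121, 67.5 and 80.9 in wild-type at day 20 and 60.25 and 68.4 at day 26, and 72.25, 89.4, 80.2 and 73.3 in the KO at day 20 and 53.2 and 48.1 at day 26. The ages overlapped in wild-type, where the value of 121 CPM was that of replicate 2, and did not overlap in the KO. In log2 terms the change was -0.43 ± 0.169 in wild-type (adjusted p = 0.0455, edgeR) and -0.64 ± 0.17 in the KO (adjusted p = 0.00397). Without replicate 2 the wild-type value was -0.27 (adjusted p = 0.0739). The wild-type call was lost in 8 of the 24 fits with 1 library left out, with adjusted p up to 0.233 without wild-type day 26 replicate 1, and in 4 of 5 other alternatives.

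Brd9 rose in the KO, where its CPM went from 45.85, 44.8, 44.8 and 47.0 at day 20 to 60.1 and 59.5 at day 26 without overlap. The log2 fold change was 0.39 ± 0.138 (adjusted p = 0.0221, edgeR), beside 0.25 ± 0.139 in wild-type (adjusted p = 0.154), which was 0.16 without replicate 2 (adjusted p = 0.359). The KO call was lost without either library of KO day 26 (0.37 and 0.38, adjusted p = 0.109 and 0.108) and under upper-quartile scaling (0.24, adjusted p = 0.125). Brd7 passed in neither, at -0.27 ± 0.164 in wild-type (adjusted p = 0.194) and 0.05 ± 0.162 in the KO (adjusted p = 0.818). Its wild-type CPM was 117, 66.0, 99.6 and 97.8 at day 20 and 73.7 and 84.4 at day 26, and without replicate 2, the lowest of the 6, the fall passed at -0.45 (adjusted p = 0.00751).

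Leaving out that 1 library therefore changed the wild-type count from 3 to 6 of the 9 genes, against 46.4% of all genes: Nutm1, Brd2 and Brdt higher, and Brd7, Ep300 and Crebbp lower. The count was 1 (Nutm1) without wild-type day 26 replicate 2, against 27.0% of all genes, and 2 (Nutm1 and Brd2) in the KO without KO day 26 replicate 2, against 33.4%. Nutm1 was the only one of the 9 that passed with every library left out in turn in both genotypes.

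**Figure D2:**
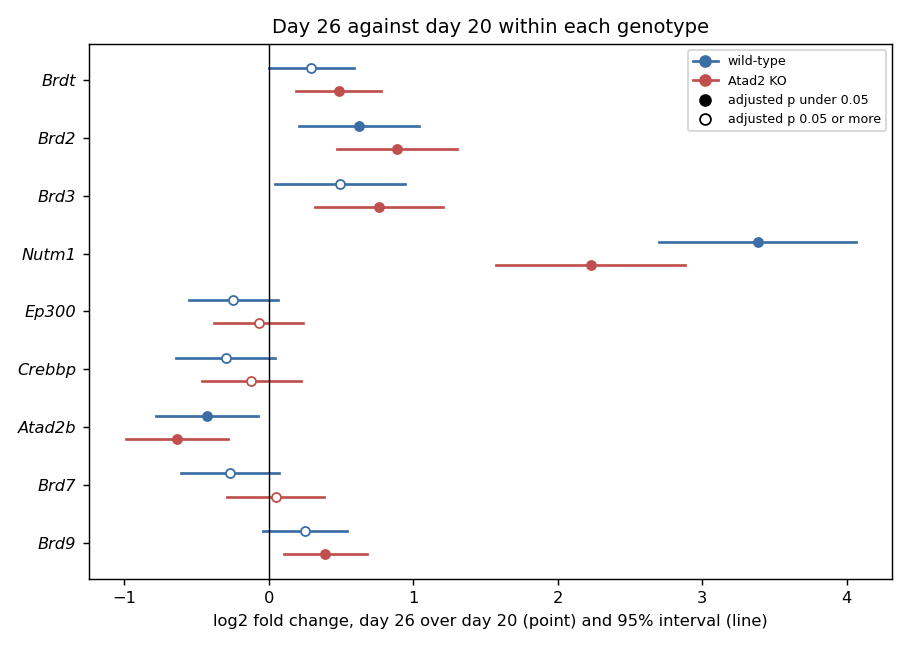
Log2 fold change from day 20 to day 26 (horizontal axis) of the 9 genes in wild-type (blue) and Atad2 KO (red); points are edgeR estimates, lines their 95% intervals, and filled points passed at an adjusted p under 0.05. Nutm1 lies apart at 3.39 and 2.23, and the other estimates lie between -0.64 and 0.89.

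The second comparison, Atad2 KO against wild-type at each age, asks whether loss of ATAD2 was accompanied by a change in the other readers and writers of acetylation. The answer was 1 of the 9 genes at 1 age. At day 20 Nutm1 was higher in the KO, against 3.34% of all genes called and 2.98% called higher. None of the 9 passed at day 22 (2.51% of all genes), day 24 (0.0874%), day 26 (0.0466%) or over the mean of the 4 ages (7.08%) by edgeR. At an unadjusted p under 0.05 0 of the 9 genes were counted in each of these 4 comparisons, against 14.6%, 5.23%, 11.5% and 23.2% of all genes in that order. DESeq2 also called 0, against 4.07%, 0.243%, 1.02% and 9.64% of the genes it tested.

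At day 20 the KO libraries held 8.78, 8.24, 18.2 and 23.3 CPM of Nutm1 and the wild-type libraries 5.74, 4.95, 5.55 and 7.92 CPM. Each KO library lay above each wild-type library, as was the case for 3.03% of all genes, but KO replicates 1 and 2 lay within 1 CPM of the highest wild-type library. The difference came to 1.27 ± 0.289 on the log2 scale (SE; edgeR, adjusted p = 0.0166), a 2.41-fold difference with a 95% interval of 1.59 to 3.66.

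The call depended on single libraries. With 1 left out it was kept in 19 of 24 fits, at up to 1.47 without KO replicate 2. Without single libraries it was lost, namely without KO replicate 3 (1.16, adjusted p = 0.0677) or 4 (0.95, adjusted p = 0.0926), and without wild-type replicate 1 (1.25, adjusted p = 0.0628), 2 (1.18, adjusted p = 0.0746) or 3 (1.24, adjusted p = 0.0777). In these 5 fits 151 to 321 of all genes passed, against 573 with all libraries, and without wild-type replicate 2 the share was 1.87%. Fitted on the day 20 libraries alone, the difference was 1.27 with an adjusted p of 0.218.

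The round-spermatid markers moved with it. Their score, the mean log2 CPM of the 10 genes after centring each gene on its mean, was -1.96, -3.06, -0.53 and 0.21 in KO replicates 1 to 4 and -4.16, -4.39, -4.53 and -2.85 in the wild-type replicates. The 2 KO libraries with the highest score were the 2 with the highest Nutm1, and wild-type replicate 4 held the highest score and the highest Nutm1 of its group. With the difference between round-spermatid and pachytene marker scores as a covariate in the fit, the log2 fold change was 0.07 (adjusted p = 0.997). A difference in the stage reached by the testes and a change of Nutm1 within cells cannot be told apart here.

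**Figure D3:**
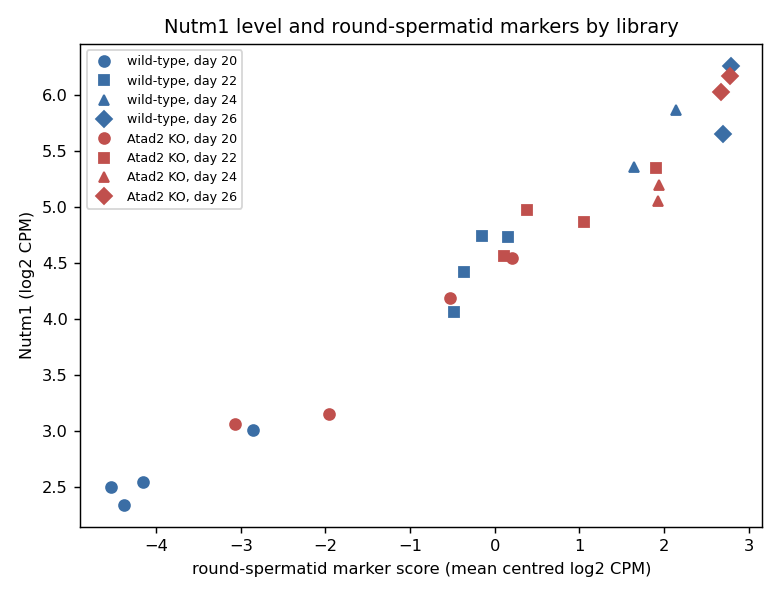
Nutm1 level (log2 CPM) against the score of 10 round-spermatid marker genes (mean centred log2 CPM) in the 24 libraries; colour gives the genotype and symbol the age. The KO libraries of day 20 at scores of -0.53 and 0.21 lie beside those of day 22 and the other 2 near wild-type day 20 replicate 4.

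At day 22 Nutm1 measured 23.6, 40.7, 29.1 and 31.4 CPM in the KO and 26.6, 16.6, 26.7 and 21.3 CPM in wild-type, with overlap and a log2 fold change of 0.45 ± 0.267 (adjusted p = 0.506, edgeR). At day 24 it was 33.2 and 36.6 CPM in the KO and 58.1 and 40.8 CPM in wild-type, this time with the KO lower and without overlap, at -0.50 ± 0.374 (adjusted p = 1). That value was -0.22 without wild-type day 24 replicate 1 and -0.72 without replicate 2. At day 26 the genotypes overlapped again (65.1 and 72.1 against 50.3 and 76.6 CPM; 0.11 ± 0.37, adjusted p = 0.942). The edgeR test of whether the KO effect differed across the ages gave an adjusted p of 0.371 for Nutm1. It passed for none of the 9 genes against 0.00582% of all genes. Nutm1 was the only one of the 9 with an unadjusted p under 0.05, against 9.06% of all genes, and DESeq2 called 0, against 1.65%.

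The BET genes differed little between genotypes. Over the mean of the 4 ages the log2 fold change was -0.04 ± 0.0714 for Brdt (adjusted p = 0.777, edgeR; 95% interval -0.19 to 0.11), 0.07 ± 0.102 for Brd2 (adjusted p = 0.759; -0.15 to 0.28) and 0.04 ± 0.11 for Brd3 (adjusted p = 0.873; -0.19 to 0.27). On the linear scale the interval for Brdt ran from 0.876-fold to 1.08-fold. At single ages the intervals were wider, and the estimates of the 3 genes ranged from -0.20 for Brdt at day 24 to 0.34 for Brd2 at day 26. At day 20 the values of Brdt, Brd2 and Brd3 were -0.07, 0.08 and -0.06, and without wild-type replicate 2 they were 0.0099, -0.13 and -0.28 (lowest adjusted p 0.223, for Brd3).

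For Ep300 and Crebbp the mean-of-ages values were -0.0018 ± 0.074 (adjusted p = 0.995, edgeR; 95% interval -0.16 to 0.15) and -0.07 ± 0.0819 (adjusted p = 0.644; -0.24 to 0.10). At day 20 Ep300 measured 152, 175, 186 and 192 CPM in the KO beside the wild-type values of 139 to 210.2 CPM, and Crebbp 161, 183.5, 205 and 219.9 CPM in the KO beside 155 to 247 CPM. The lower end of both wild-type ranges was replicate 2 alone, and each KO library lay below the other 3 wild-type libraries, which held 204.5 to 210.2 CPM of Ep300 and 227 to 247 CPM of Crebbp. The day 20 differences of -0.11 and -0.16 were -0.25 (adjusted p = 0.184) and -0.30 (adjusted p = 0.174) without that library.

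Atad2b, the paralogue of the targeted gene, did not pass at any age. Its log2 fold change was -0.14 ± 0.135, -0.08 ± 0.135 and -0.01 ± 0.192 at the first 3 ages and -0.34 ± 0.192 at the last, where the adjusted p was 0.51 (edgeR), and -0.14 ± 0.083 over the mean of the ages (adjusted p = 0.322). The interval of the mean, -0.31 to 0.03, has an upper bound of a 1.02-fold rise. Leaving out wild-type replicate 2 turned the day 20 value to 0.050 (adjusted p = 0.847), and the mean of the ages was then -0.09 (adjusted p = 0.347). Atad2 itself fell, so the per-length level of Atad2b relative to Atad2 went from 0.871 ± 0.0848 (SD, n = 4) in wild-type to 2.45 ± 0.0826 (n = 4) in the KO at day 20, and from 0.546 ± 0.0311 to 1.02 ± 0.0808 (n = 2 each) at day 26. Both ratios used the length of all Atad2 exons, although the KO transcript may cover only part of them. At day 26 the KO libraries (53.2 and 48.1 CPM) lay below the wild-type libraries (60.25 and 68.4 CPM), as did 31.1% of all genes.

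Brd7 and Brd9 passed at no age, with mean-of-ages values of -0.08 ± 0.0813 (adjusted p = 0.616, edgeR) and 0.08 ± 0.0699 (adjusted p = 0.564). Brd9 at day 20 was 0.03, and -0.036 without wild-type replicate 2 (adjusted p = 0.909). Brd7 at day 20 was 75.15, 78.7, 86.6 and 85.5 CPM in the KO and 117, 66.0, 99.6 and 97.8 CPM in wild-type, at -0.23 ± 0.133 (adjusted p = 0.549). Every KO library was below 3 of the 4 wild-type libraries and above replicate 2, without which the value was -0.38 (adjusted p = 0.0631).

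At days 24 and 26, with 2 libraries a genotype, genes without overlap were common. At day 24 the KO libraries of 5 of the 9 genes (Brdt, Brd2, Brd7, Nutm1 and Crebbp) lay below the wild-type ones, as for 21.4% of all genes, and at day 26 those of 4 (Brd2, Brd3, Brd9 and Ep300) lay above, as for 27.8%. Marker sums of several cell types also lay apart at both ages, while the round-spermatid sums overlapped. The elongating-spermatid sum at day 24 was 787 to 1554 CPM in the KO and 456 to 558 CPM in wild-type. The part of cell composition in these gene differences was not tested beyond the stage covariate. Brd2 was 446 and 453 CPM in the KO and 549 and 463.5 CPM in wild-type at day 24, and 617 and 738 against 501 and 570.5 CPM at day 26. It thus lay on opposite sides at the 2 ages, and its values of -0.17 ± 0.237 (adjusted p = 1, edgeR) and 0.34 ± 0.237 (adjusted p = 0.607) passed at neither. The day 24 value was -0.043 without wild-type replicate 1 and -0.27 without replicate 2.

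**Figure D4:**
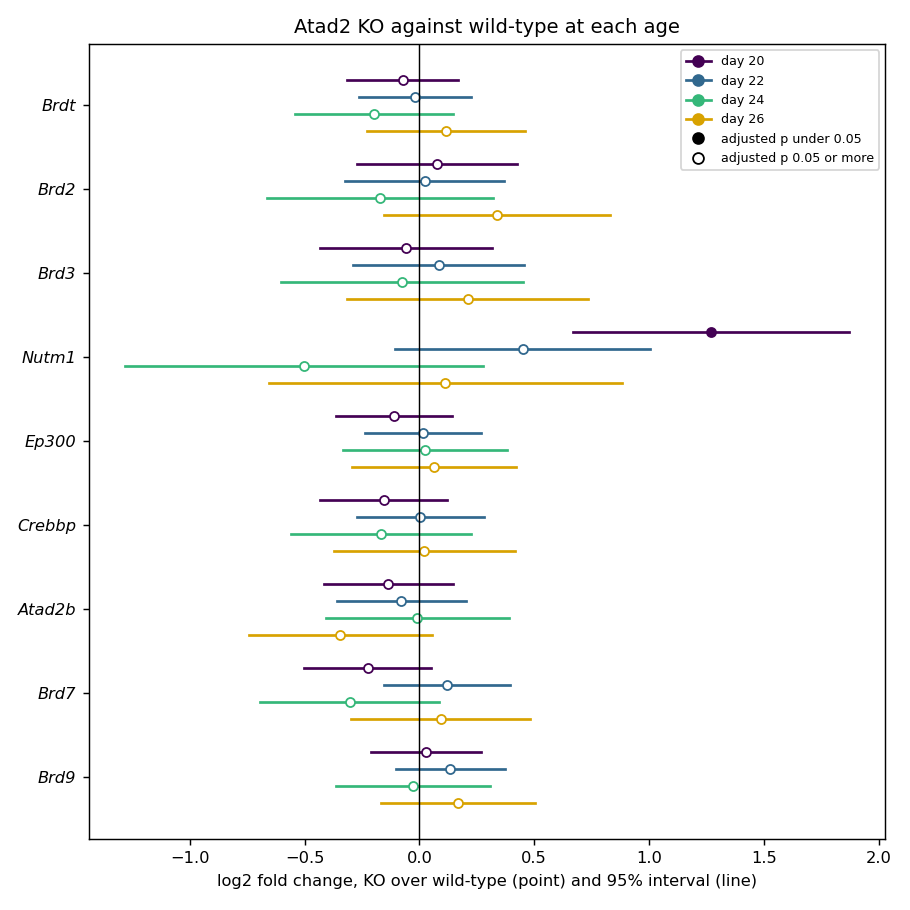
Log2 fold change of Atad2 KO over wild-type (horizontal axis) for each gene at days 20, 22, 24 and 26; points are edgeR estimates, lines their 95% intervals, and filled points passed at an adjusted p under 0.05. Nutm1 at day 20 (1.27) is the only filled point, and the intervals of all other estimates cross 0.

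**Figure D5:**
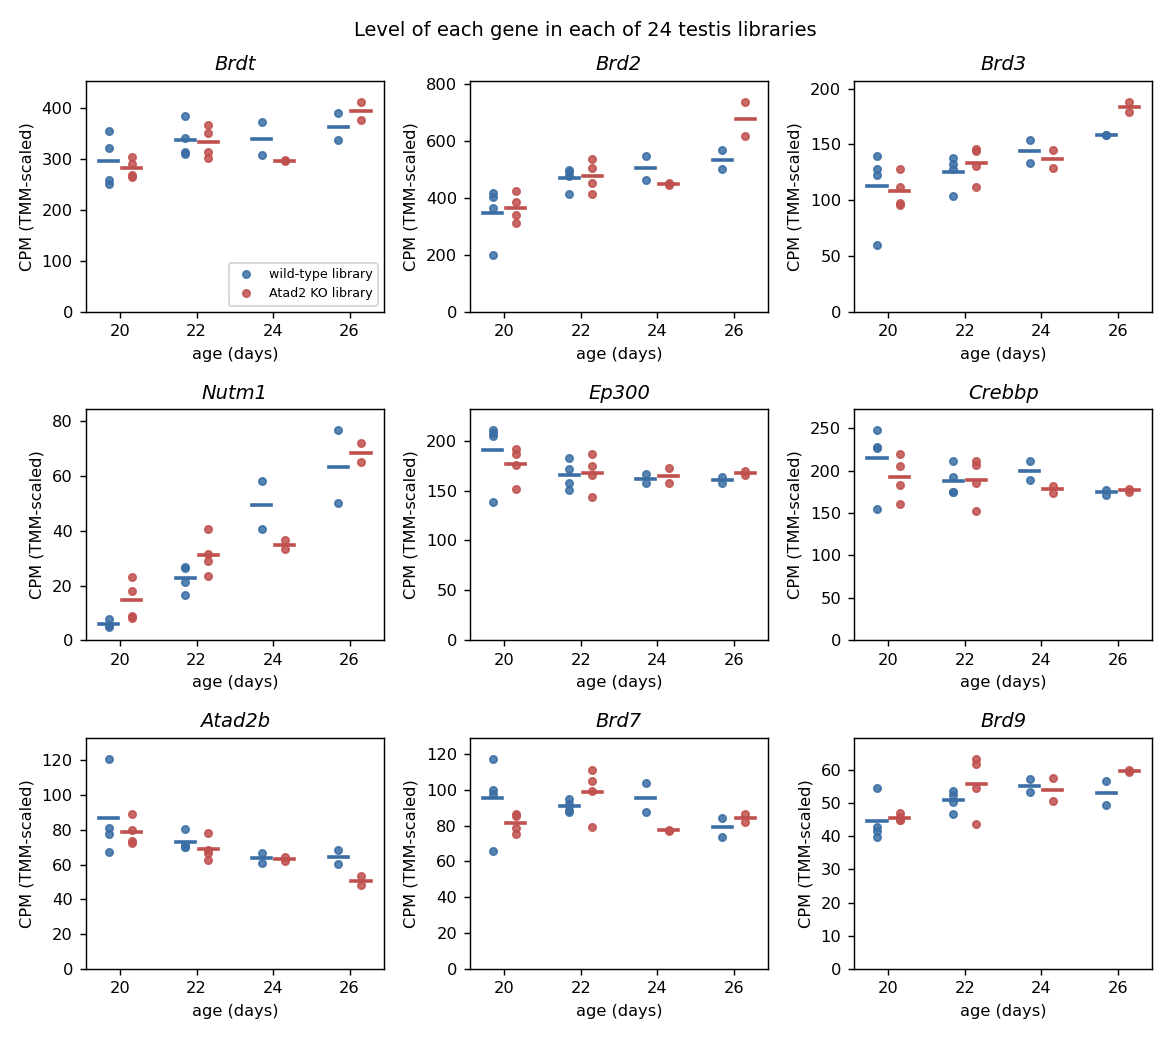
CPM of each gene in each library against age, with wild-type in blue and Atad2 KO in red; points are libraries and bars group means. Nutm1 rises with age in both genotypes, and the wild-type library of day 20 that lies low for Brd2 (199.6 CPM), Brd3, Brd7, Ep300 and Crebbp and high for Atad2b (121 CPM) is replicate 2.

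Other genes of the same families were read from a list of 29 bromodomain genes besides the 9 genes and Atad2, and 12 further acetyltransferases. With age, 4 of the 29 rose and 7 fell in wild-type and 7 rose and 9 fell in the KO, and of the 12 acetyltransferases 2 rose and 4 fell in wild-type and 3 rose and 4 fell in the KO. All genes tested rose in 24.4% and fell in 18.1% of cases in wild-type, and in 27.2% and 24.9% in the KO. The median log2 fold change in wild-type was -0.11 over the bromodomain list and -0.12 over the acetyltransferase list, beside -0.04 over all genes.

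Of the 41 genes, 14 passed in both genotypes, against 35.4% of all genes, with 4 higher and 10 lower, against 21.5% and 13.9%. The 3 largest rises were those of Trim66 (3.74 in wild-type and 3.14 in the KO, as log2 fold changes), a TRIM-family reader, Smarca2 (0.83 and 0.95), an ATPase of the SWI/SNF remodellers, and Trim24 (0.76 and 0.89), a co-regulator of nuclear receptors. The 3 largest falls were those of Taf1 (-0.98 and -0.91), the largest TFIID subunit, Phip (-0.84 and -0.96), a WD-repeat bromodomain protein, and Kmt2a (-0.79 and -0.94), a histone H3 lysine 4 methyltransferase. Trim66 was the only one of the 14 whose rise exceeded 1 on the log2 scale.

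Between genotypes, 1 of the 29 bromodomain genes passed at day 20, where 3.34% of all genes did, and 1 at day 22, where 2.51% did, and none of the 12 acetyltransferases passed at any age by edgeR. These 2 genes were looked up after their values were seen. They were Taf1, lower in the KO at day 20 (-0.44 ± 0.121, adjusted p = 0.0463, edgeR), and Trim66, higher in the KO at day 22 (1.45 ± 0.338, adjusted p = 0.0278). Taf1 was -0.27 without wild-type replicate 2 (adjusted p = 0.0674), and its call was lost in 20 of the 24 fits with 1 library left out. Trim66 held 4.12, 15.2, 10.6 and 7.64 CPM in the KO at day 22 and 4.37, 2.84, 3.32 and 3.17 CPM in wild-type, and lost its call in 5 of the 24 fits, with a lowest value of 1.12 without KO day 22 replicate 2 (adjusted p = 0.133). The round-spermatid markers at day 22 summed to 120 to 424.5 CPM in the KO and 80.9 to 122 CPM in wild-type, ranges that barely overlapped, and their part in the Trim66 difference was not tested beyond the stage covariate. With the stage covariate Trim66 was 0.90 (adjusted p = 0.239) and Taf1 -0.30 (adjusted p = 0.771). Over the mean of the ages Atad2 was the only gene of both lists that passed.

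Across the 24 libraries, the genes most like each of the 9 in log2 CPM were listed as a description, since the libraries share their ages and stage. Nutm1 was closest to Mmel1 (Pearson r = 0.991), Spaca5 (0.99) and Klhl10 (0.99), and Brd2 to Gorasp2 (0.99), Tada3 (0.986) and Ccdc92 (0.984). Brdt was closest to Arhgap29 (0.921), Rb1cc1 (0.907) and AW554918 (0.885). Brd3 followed Cc2d1a (0.974), Phc1 (0.973) and Ubap2 (0.97).

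Ep300 and Crebbp were each the closest gene to the other (r = 0.92), ahead of Ulk1 (0.878) and Kmt2b (0.86) for Ep300 and of Supt6 (0.905) and Numa1 (0.905) for Crebbp. Atad2b was closest to Taok1 (0.976), Smchd1 (0.965) and Syncrip (0.963). Brd7 was closest to Atf7ip (0.873), Eif4enif1 (0.872) and Dnmt1 (0.872), and Brd9 to Mdm2 (0.916), Gpatch2 (0.9) and Dnaic1 (0.898).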

How the data were processed

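RNA of 24 mouse testis libraries (TruSeq stranded total RNA after ribosomal depletion, paired 75-base reads) was measured. The deposited values were raw counts per gene: the authors aligned reads to mm10 with STAR 2.7.11b and counted exons with HTSeq, reverse-stranded, in strict intersection mode and without multiply mapped reads. Pairs lying only partly on exons, and those shared by paralogues, are therefore missing from the counts. The authors' own normalization used DESeq2 1.22.2. The labels name a purification of spermatogenic cells in the extraction protocol, while the study's methods describe RNA taken from whole testes. Besides the genes, 5 tallies (45.1 to 58.5% of pairs not assigned to the exons of any gene and 4.74 to 13.7% not unique) were left out of library sizes and tests.

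Genes were filtered with filterByExpr (minimum count 10), scaled by TMM and fitted with edgeR 4.0.16 (R 4.3.3) in 1 robust quasi-likelihood model of 8 genotype and age groups, which share the spread because 2 ages have 2 libraries a genotype. Tests were two-sided, with p-values adjusted over all 17170 genes and a threshold of 0.05. RPKM used the exon length of GENCODE M21, which may differ from the gene models the authors counted on. No pair of libraries of the same genotype and age agreed within sampling noise. The genes, gene lists and marker lists were chosen with earlier results of these data known. The rule named all 9 genes in every comparison, the list genes passing over the mean of the ages (at most 10), the 3 largest rises and falls with age passing in both genotypes, and the 3 genes most correlated with each (log2 CPM, prior count 2). Alternatives were DESeq2 1.42.0, its size factors, upper-quartile scaling, no filter, a stage covariate, a replicate block, each age alone and each library left out.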

Additional observations from a re-analysis of the deposited data

Results flagged for a closer look

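In the 36 groups of 4 libraries tested for a library far from the others (9 genes, 4 groups of that size), 2 stood out by Dixon's test at the 95% level. The tests share libraries and some of the genes move together, so this count was not set against chance. Atad2b measured 80.6 CPM in wild-type day 22 replicate 2, above 70.0 to 71.0 CPM in the other 3 libraries. Ep300 measured 138.7 CPM in wild-type day 20 replicate 2, below 204.5 to 210.2 CPM in the other 3, and the same library was the lowest of its group for Brd2, Brd3, Brd7, Brd9, Nutm1 and Crebbp.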

How the results depend on the processing

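Of the log2 fold changes under alternatives other than leaving out a library, 350 kept direction and side of the threshold, 15 lost the call, 3 gained one and 28 changed sign; with 1 library left out these were 1437, 19, 5 and 51. All values that changed sign were of differences that had not passed; the cause was not tested. At day 20 the count of genes passing (1, Nutm1) was 0 with the stage covariate and 0 with that age fitted alone. The wild-type count with age (3) was 5 under upper-quartile scaling, where Brd2 was lost and Brd7, Ep300 and Crebbp passed, and 0 with the stage covariate, and the KO count (6) was 1 with that covariate, which moves with age: 0 of all genes passed with it in wild-type and 2752 in the KO, against 7292 and 8955 without it. In wild-type Atad2b also lost its call with DESeq2 (adjusted p = 0.0653), with its size factors (0.0694) and without the filter (0.0657), and Brd9 in the KO under upper-quartile scaling (0.24, adjusted p = 0.125). Taf1 also lost its day 20 call without the filter (adjusted p = 0.0589) and with day 20 alone (0.63), and Trim66 its day 22 call with day 22 alone (0.117). With 1 library left out the counts ranged from 0 to 1 at day 20, 1 to 6 with age in wild-type and 2 to 6 in the KO. Upper-quartile scaling moved the median of all genes with age from -0.04 to -0.20 in wild-type and from -0.07 to -0.22 in the KO, and the genes called higher and lower from 4183 and 3109 to 3565 and 4873 in wild-type and from 4672 and 4283 to 4010 and 5619 in the KO.

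Signs changed as follows. With the stage covariate the values were Brdt 0.019 and Brd2 -0.13 at day 20, Brdt 0.025, Brd2 -0.072, Brd3 -0.043, Nutm1 -0.070, Ep300 -0.044 and Crebbp -0.090 at day 22, Brd2 -0.0024, Brd3 -0.051 and Nutm1 -0.057 over the mean of ages, Brd3 -0.16 with age in wild-type and Brd7 -0.11 with age in the KO. Upper-quartile scaling gave Brd9 -0.0024 at day 20, Crebbp -0.012 at day 22 and -0.0011 at day 26, and Brd7 -0.10 with age in the KO. DESeq2 gave Brdt 0.0032 at day 22, Ep300 0.015 over the mean of ages and 0.017 with age in the KO, its size factors 0.0025, 0.015 and 0.017, and no filter Brdt 0.032 and Ep300 0.019 in the first 2 of these. Leaving out libraries gave at day 20 Atad2b -0.23 to 0.050, Brdt -0.14 to 0.0099, Brd2 -0.13 to 0.17, Brd3 -0.28 to 0.076 and Brd9 -0.036 to 0.14, and at day 22 Brdt -0.068 to 0.073, Brd2 -0.040 to 0.086, Ep300 -0.040 to 0.087 and Crebbp -0.053 to 0.095. At day 24 it gave Atad2b -0.060 to 0.061, Brd3 -0.16 to 0.034, Brd9 -0.12 to 0.057 and Ep300 -0.044 to 0.089, at day 26 Nutm1 -0.15 to 0.45 and Crebbp -0.0039 to 0.061, over the mean of ages Brd3 -0.0073 to 0.085 and Ep300 -0.029 to 0.024, and with age in the KO Brd7 -0.0076 to 0.078.

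Whether the replicate numbers mark pairs was left unsettled: of 12 same-numbered pairs of libraries 7 had deviations correlated above 0.1 (range -0.459 to 0.416). The day 22 pairs were all negative. With 2 libraries a genotype, the 2 pairs of day 24 share a single value by construction, as do those of day 26. With the replicate block Nutm1 at day 20 was 1.19 (adjusted p = 0.0182), no KO against wild-type call among the 9 genes changed (the changes with age were not fitted with the block), Trim66 at day 22 lost its call (1.33, adjusted p = 0.0665), and Brd3 at day 20 was 0.00011, Crebbp at day 22 -0.0026 and Ep300 over the mean of ages 0.00088. The counts over all genes depend on the model: at day 20 573 genes passed with edgeR, 888 with DESeq2, 4 with the stage covariate and 5 with that age alone, and at day 26 8, 159, 23 and 2104. With 1 library left out they ranged from 151 (without wild-type day 20 replicate 3) to 780 (without KO day 20 replicate 2) at day 20, from 60 (without wild-type day 22 replicate 4) to 858 (without KO day 22 replicate 1) beside 431 at day 22, from 0 to 24 beside 15 at day 24, from 0 to 103 at day 26 and from 302 (without wild-type day 24 replicate 2) to 1737 beside 1215 over the mean of ages. With 2 libraries a genotype at days 24 and 26, the 95% intervals allow changes of Nutm1 from 0.411-fold to 1.21-fold at day 24 and from 0.634-fold to 1.85-fold at day 26.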
